A study of Mus musculus with 4 samples.

Results

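The cells described here are those that the authors labelled ECL (Tac1+), one of the enteroendocrine subtypes in their annotation of injured mouse pancreas. They were taken by that deposited name alone. They make up 17.1% of the 1269 cells in the 5 enteroendocrine subtypes, 8.39% of the 2586 cells in the tuft and enteroendocrine table, and 1.03% of all 21140 cells. The 4 mice gave 43, 71, 46 and 57 of them, where values in this order always stand for the first and second 2-week mouse and then the first and second 4-week mouse. All of them also carried the broader deposited type EEC.

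Pancreata came from 4 Ptf1aCre-ERTM;ROSAYFP/+ mice backcrossed into CD-1, which were 10 weeks old at injury. Tamoxifen by gavage switched on EYFP in acinar cells, since the Ptf1a promoter drives the inducible Cre, and caerulein, a peptide that causes pancreatitis, was then injected for 2 weeks (2 mice) or 4 weeks (2 mice). EYFP-positive cells were sorted and sequenced with 10x Genomics 3' chemistry, which counts each captured molecule by a unique molecular identifier (UMI). Every group shares the allele, tamoxifen, injury and sort, no uninjured group was analysed here, and p-values measure the spread between mice, with n = 2 per time. Each of these cells held at least 1 EYFP UMI (median 3, highest 16), and 40 cells held exactly 1. The broader types are labels of EYFP-positive cells, so a UMI in each cell may follow from how cells were chosen. It is no test of their origin.

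Enteroendocrine cells are scattered hormone-secreting cells of the gut epithelium. Enterochromaffin cells make serotonin with the enzyme Tph1, pack it through the transporter Slc18a1 and often make the tachykinin precursor Tac1. Enterochromaffin-like cells are a different type, found in the acid-secreting stomach, that make histamine with the enzyme Hdc, pack it through Slc18a2 and respond to gastrin through Cckbr. Both store their products in dense-core granules built around the granins Chga and Chgb.

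The number of UMIs per cell had a median of 11062, 12533, 8907 and 8234 in the 4 mice, and the summed counts held 480047, 959183, 448302 and 563206 UMIs. Both 4-week mice were therefore shallower per cell than both 2-week mice. Levels below are UMIs of a gene per 1000000 UMIs summed over the cells of a mouse (CPM), and since 3' chemistry counts molecules, no division by gene length was made. Of all cells, 67 barcodes occurred in more than 1 mouse, none of them carried by a cell with this label. No cell was removed as a doublet. The second 4-week mouse had no Xist UMI in these cells and a Ddx3y level of 71.0 CPM, while the other mice had Xist at 1692, 1679 and 1454 CPM and no Ddx3y UMI, so sex and time are partly joined in this design. Subtypes had been named by the authors on these same counts, so differences between subtypes are described without a test.

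The name was checked against defining genes first. Tac1 was found at 615, 300, 562 and 952 CPM, against means of 5.03 in Delta (Sst+), 5.86 in Epsilon (Ghrl+), 1.43 in Ppy+ and 0.213 in EEC-Progenitor (Neurog3+) cells. Tph1, the rate-limiting enzyme of serotonin synthesis outside the brain, stood at 47.9, 41.7, 33.5 and 47.9 CPM, with no other subtype's mean above 0.719. Both were higher in the Tac1+ cells than in each of the 4 other subtypes in 4 of 4 mice. Among all 15860 features with a UMI in these cells, 655 (4.13%) met that criterion and 31 (0.195%) were lower than in each other subtype in 4 of 4 mice. It held for 8 of 11 enterochromaffin markers: Tac1, Tph1, Ddc, Slc18a1, Lmx1a, Fev, Chga and Chgb. The exceptions were the sensor channels Trpa1 (7 UMIs in 3 cells) and Piezo2 (no UMI) and the adrenergic receptor Adra2a at 5.87 CPM.

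Apart from Chga, the listed markers of histamine-making enterochromaffin-like cells were nearly absent. Chga was higher here than in each other subtype in 4 of 4 mice, but it is also listed for enterochromaffin cells. Hdc had 5 UMIs in 5 cells, and its level of 2.53 CPM was below the 7.01 CPM of Epsilon cells. Cckbr, the gastrin receptor, and Adcyap1r1, the PACAP receptor, had no UMI in any cell, which allows a share of up to 1.38% of cells with a UMI. Slc18a2 had 21 UMIs in 13 cells at 10.8 CPM, against 36.5 CPM in Epsilon cells. In its histamine genes the label ECL therefore goes against these data, and the cells are called the Tac1+ cells from here on.

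Of the 3 genes listed as markers of these cells, Gip, the glucose-dependent insulinotropic peptide, did not set them apart. Its level was 21533, 503, 3386 and 10865 CPM, and its mean of 9072 ± 9386 (SD, n = 4) lay below the 10270 of Ppy+ cells. Only the first 2-week mouse had more Gip here than in every other subtype.

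**Figure D1:**
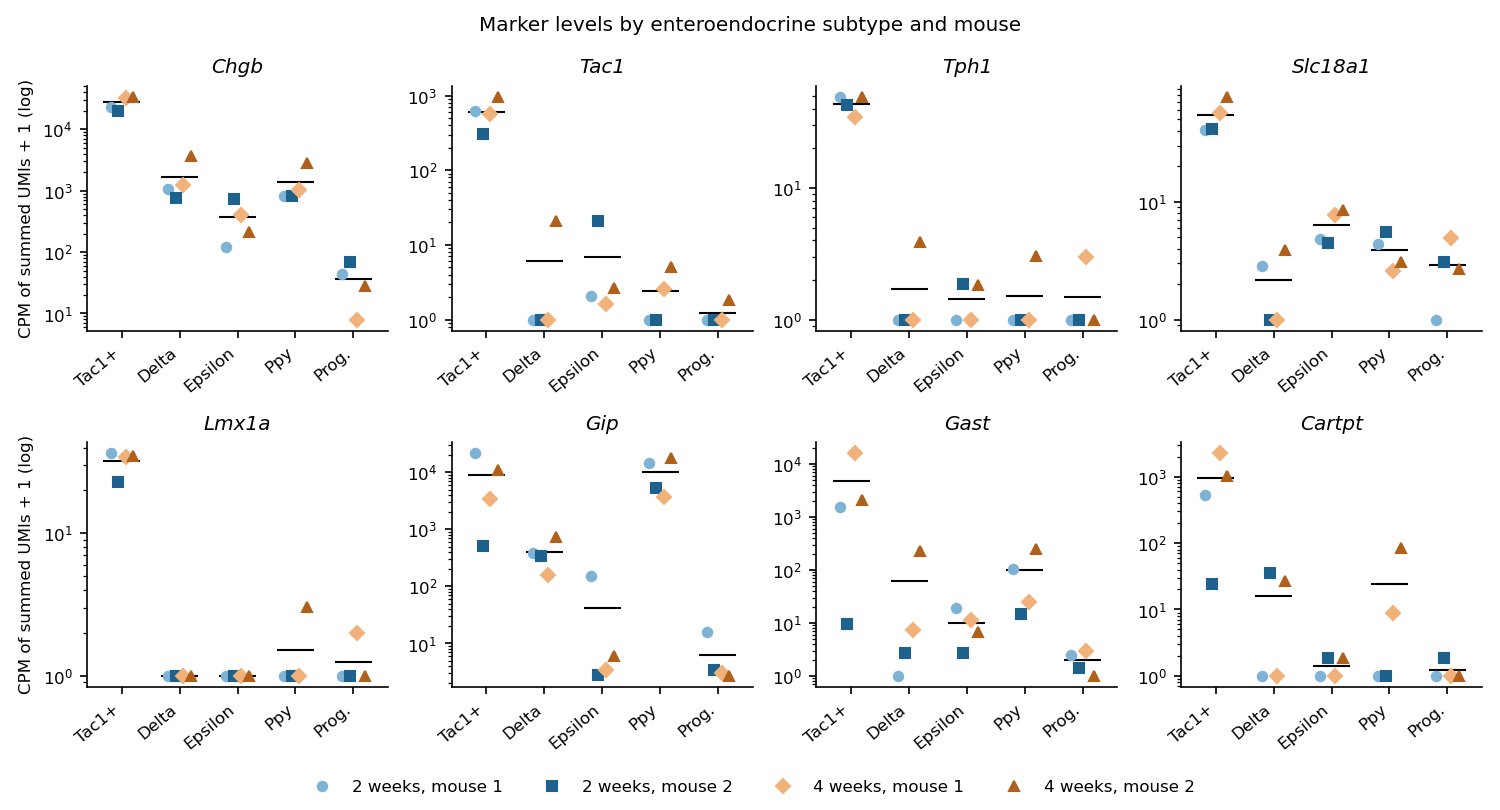
Levels of 8 genes in the 5 enteroendocrine subtypes, as CPM of summed UMIs plus 1 on a log axis. Each symbol is a mouse, the line is the mean of 4 mice, and Prog. is EEC-Progenitor; Chgb, Tac1, Tph1, Slc18a1 and Lmx1a are high in the Tac1+ cells of all 4 mice, Gip is as high in Ppy+ cells, and Gast and Cartpt are low in the second 2-week mouse.

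The granins Chgb and Chga were high in the Tac1+ cells of every mouse. Chgb, an acidic granule-forming protein, was present in every cell at 23560, 20222, 32920 and 33546 CPM. Its mean of 27562 ± 6693 CPM compares with 1703 in Delta, 1382 in Ppy+, 371 in Epsilon and 36.1 in EEC-Progenitor cells, a log2 ratio of 4.02 to the highest of them. No single cell carried more than 3.56% of the Chgb UMIs. Chga was present in 215 cells at 3029, 2375, 5563 and 3468 CPM, against 1298 in Epsilon cells.

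Of 22 granin and dense-core vesicle genes, 6 were higher than in every other subtype in 4 of 4 mice: Chga, Chgb, Rab3c, Syt13, Ptprn2 and Cplx2. That is 27.3% of the list, beside 4.13% of all features with a UMI. Rab3c, a small GTPase of secretory vesicles, stood at 124 CPM against 52.2 in Epsilon cells. Scg2 was low instead, at 22.2 CPM against 431 in Ppy+ cells, and 58.7% of its UMIs were in 1 cell. Scgn, a calcium sensor, was at 87.7 CPM against 325 in Delta, 362 in Epsilon and 331 in Ppy+ cells. High granin levels were thus not shared by every vesicle gene.

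Promoters are shown of 4 genes whose mean over mice was high in these cells. Cartpt was not high in the second 2-week mouse, at 22.9 CPM against 34.3 in Delta cells. The 4 are shown because all of them hold all or part of a cyclic AMP response element, the 8-base palindrome TGACGTCA bound by CREB-family factors. Capitals mark TGACG or its reverse complement CGTCA, which overlap inside the full element. Each sequence runs 5′ to 3′ on the gene's strand from 250 bases before to 50 bases after the annotated start (RefSeq, GRCm38.p6), with the base before the start numbered -1.
Chgb, chr2:132781392-132781691, + strand: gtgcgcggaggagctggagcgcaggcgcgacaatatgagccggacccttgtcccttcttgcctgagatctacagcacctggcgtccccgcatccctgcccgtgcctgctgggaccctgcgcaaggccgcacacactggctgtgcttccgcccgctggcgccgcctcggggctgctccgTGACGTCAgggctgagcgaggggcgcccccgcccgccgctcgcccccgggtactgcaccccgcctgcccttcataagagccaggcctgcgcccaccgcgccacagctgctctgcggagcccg
Cartpt, chr13:99900634-99900933, - strand: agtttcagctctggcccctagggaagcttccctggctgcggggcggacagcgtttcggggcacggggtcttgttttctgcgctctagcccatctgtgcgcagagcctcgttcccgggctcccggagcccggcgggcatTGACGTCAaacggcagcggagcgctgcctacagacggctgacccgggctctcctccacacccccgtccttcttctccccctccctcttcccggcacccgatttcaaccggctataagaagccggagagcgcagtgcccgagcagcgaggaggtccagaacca
Tac1, chr6:7554811-7555110, + strand: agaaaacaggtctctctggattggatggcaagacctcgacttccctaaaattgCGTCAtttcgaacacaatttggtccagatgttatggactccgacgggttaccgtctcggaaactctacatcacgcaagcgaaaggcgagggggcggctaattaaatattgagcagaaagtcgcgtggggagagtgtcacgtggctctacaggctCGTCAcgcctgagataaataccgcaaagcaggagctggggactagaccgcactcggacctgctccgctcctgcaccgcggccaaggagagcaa
Chga, chr12:102554691-102554990, + strand: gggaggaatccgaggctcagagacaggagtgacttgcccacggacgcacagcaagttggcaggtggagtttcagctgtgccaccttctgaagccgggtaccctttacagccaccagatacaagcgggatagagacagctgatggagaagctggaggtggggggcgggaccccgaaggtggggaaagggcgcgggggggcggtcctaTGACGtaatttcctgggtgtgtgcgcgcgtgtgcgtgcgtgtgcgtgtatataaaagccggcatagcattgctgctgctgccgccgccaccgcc
The full TGACGTCA begins at position -72 in Chgb and at -112 in Cartpt. In Tac1, CGTCA begins at -197 and again at -43, and in Chga, TGACG begins at -44. Among 32851 promoters of this length, 588 (1.79%) hold TGACGTCA and 6837 (20.8%) hold TGACG on either strand. These matches describe the letters only. No binding was measured, and the genes were picked for their levels and their letters.

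The serotonin pathway was present with gaps. Ddc, the decarboxylase that completes serotonin synthesis, was found in 193 cells at 615, 482, 573 and 478 CPM, above the 378 CPM of Ppy+ cells. Slc18a1, which loads amines into endocrine vesicles, stood at 39.6, 40.7, 55.8 and 76.3 CPM, with 5.4 in Epsilon cells as the highest other mean. Of 13 genes of serotonin synthesis, storage and uptake, 12 had a UMI in the Tac1+ cells. Of these 12, Tph1, Ddc and Slc18a1 were higher than in all other subtypes in 4 of 4 mice, beside 4.13% of all features with a UMI, and nothing particular to the list is read from this. Gch1, which makes the tetrahydrobiopterin cofactor, was at 530.5 ± 167 CPM and was highest here in 3 of 4 mice. Slc6a4, the serotonin uptake transporter, had 1 UMI, and the neuronal enzyme Tph2 had none.

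Tac1 was the only one of 6 tachykinin genes with a UMI. Tac2, Tac4 and the receptors Tacr1, Tacr2 and Tacr3 had none.

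Detection was far from complete within the label. Tac1 was found in 113 cells, or 52.1% (95% exact Clopper-Pearson interval 45.2 to 58.9, counting error only), and 45 cells held 5 UMIs or more. In Acinar cells, which should lack the gene, 11 of 3698 cells (0.297%) held a Tac1 UMI although their median depth was 27363 UMIs against 10646 here. Tph1 was found in 29 cells, or 13.4% (9.14 to 18.6), against 0.108% of Acinar cells. After thinning each cell to 1500 UMIs, which left out 1 Tac1+ cell and 32 Acinar cells, Tac1 was found in 28.7% and Tph1 in 5.56% of Tac1+ cells, against 0% and 0.0546% of Acinar cells. Over the 4 mice together, the richest cell held 12.6% of the Tac1 UMIs and 13.3% of the Tph1 UMIs. Within a mouse it held 36.3%, 16.7%, 24.6% and 32.3% of the Tac1 UMIs and 34.8%, 35.0%, 26.7% and 14.8% of the Tph1 UMIs, so the levels of single mice lean on 1 cell more than the total does. Leaving out the cell richest in the gene in each mouse lowered the mean Tac1 level from 607 to 442 CPM and that of Tph1 from 42.8 to 31.7 CPM.

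Peptide hormones divided the cells and the mice. Gast, the precursor of gastrin, stood at 1514, 8.34, 15811 and 2097 CPM, and 34.6% of its UMIs were in 1 cell. Cartpt, the precursor of the CART neuropeptide, stood at 529, 22.9, 2246 and 1017 CPM, with 31.1% in 1 cell. The second 2-week mouse had the lowest level of Gip, Gast and Cartpt, and the time groups overlapped for Gip but not for Gast or Cartpt. Among all genes tested over time 32.6% had groups that did not overlap, and neither gene passed (edgeR adjusted p = 0.992 for both). Gast was found in 25.8% and Cartpt in 35.9% of Tac1+ cells, against 1.41% and 0.216% of Acinar cells, and Gip was found in 39.2% against 9.95%.

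Penk and Pyy need their background beside them. Penk, the enkephalin precursor, stood at 2.08, 31.3, 190 and 247 CPM and was found in 24 cells, or 11.1%, which is not above the 15.7% of Acinar cells. After thinning, the shares were 6.02% and 1.83%. Pyy, peptide YY, was found in 36.9% of Tac1+ and 33.7% of Acinar cells, and in 18.5% and 3.38% after thinning. In Ppy+ cells Pyy reached 117805 CPM, against 498 CPM here. At full depth the shares of both genes do not set these cells clearly apart from the deeper Acinar cells, and at equal depth both shares were higher here. At least 5 Pyy UMIs were held by 15.2% of Tac1+ and 0.703% of Acinar cells, and at least 5 Penk UMIs by 4.15% and 2.11%.

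Several peptide totals belonged to single cells. One cell of the second 2-week mouse held 30572 of the Ins2 UMIs and 12484 of the Ins1 UMIs, 99.9% and 100.0% of all of them, with no other cell above 2. It was the deepest of these cells, with 74149 UMIs against 36379 in the next, and it held 5 EYFP, 34 Chgb, 197 Chga and no Tac1, Tph1, Fev or Gip UMIs. It also carried 66.1% of the Iapp UMIs and 19 of the 20 UMIs of Mafa, a beta-cell transcription factor. Without it, Ins2 fell from a mean of 7976 to 8.25 CPM and Iapp from 1333 to 619 CPM. Insulin is thus a feature of that cell. In the same way 57.1% of Ghrl UMIs and 42.7% of Cck UMIs were in 1 cell each.

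Each cell was also sorted by its leading peptide, the one of 30 gut and islet peptides with the most UMIs, if it had at least 10. Gip led in 40 cells, Gast and Tac1 in 20 each, Pyy in 14, Cartpt in 13, Penk in 6, Iapp in 5, Cck and Ghrl in 2 each, and Ins2, Sst and Ucn3 in 1 each. No peptide led in 92 cells (42.4%). Gip led in 20, 3, 5 and 12 cells of the 4 mice, which is 46.5%, 4.23%, 10.9% and 21.1% of them. Gast led in 2, 0, 10 and 8 cells and Pyy in 0, 11, 1 and 2. Tac1-led cells occurred in every mouse, with 3, 7, 3 and 7 cells. The share with no leading peptide was 60.6% in the second 2-week mouse and 32.6%, 34.8% and 33.3% in the other mice. These counts depend on the minimum and on depth. No peptide led in 61 cells at a minimum of 3 UMIs and in 161 after thinning, and Tac1 led in 32 and 2.

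**Figure D2:**
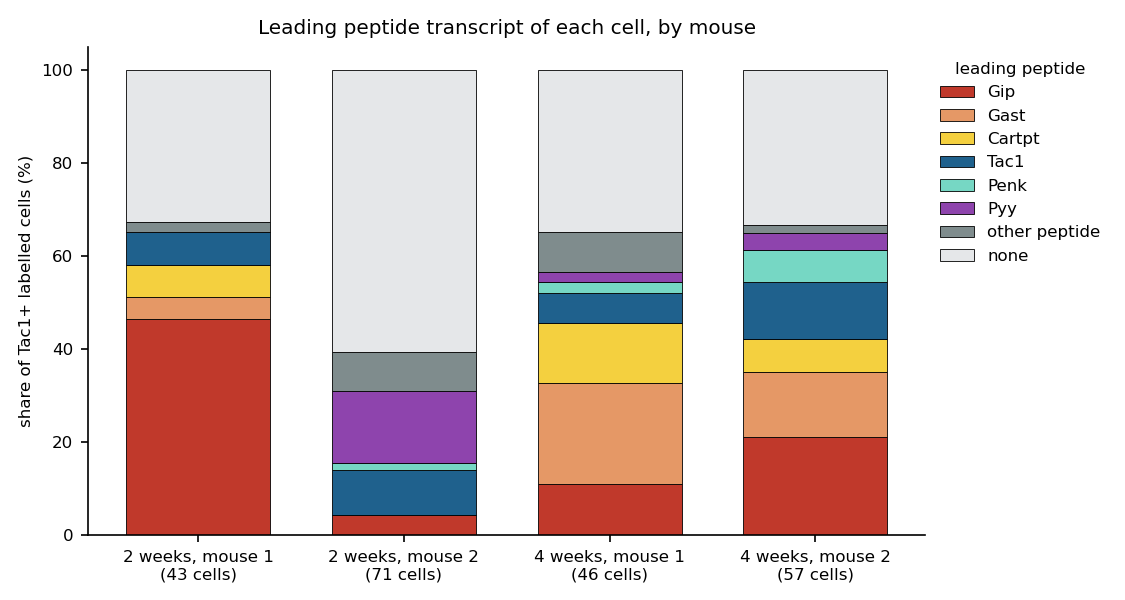
Share of Tac1+ labelled cells in each mouse by the peptide with the most UMIs (at least 10), with ties and lower counts as none; other peptide is Iapp, Cck, Ghrl, Ins2, Sst and Ucn3. Gip leads in 46.5% of cells of the first 2-week mouse and in 4.23% of the second, which has 60.6% with none.

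Cells with Tph1 formed a recognisable subset. Of the 29 cells with a Tph1 UMI, 24 also held Slc18a1, 20 held Lmx1a, a transcription factor of enterochromaffin cells, 25 held Tac1 and 17 held Penk. Among the 188 cells without Tph1 the same genes were found in 18, 25, 88 and 7 cells, although those cells were deeper (median 11065 against 8949 UMIs). Chga stood at 7779 CPM in Tph1-positive and 2685 CPM in the other cells, and Chgb at 52834 against 22360, both higher in 4 of 4 mice. Gip was found in 1 of the 29 cells and Gast in 2, against 84 and 54 of the 188, while Cartpt was found in 10 of the 29 and 68 of the 188. Tph1-positive cells numbered 4, 7, 8 and 10 in the 4 mice, and 2, 6, 8 and 9 of them held Tac1. Levels of Slc18a1 and Lmx1a were higher with Tph1 in 4 of 4 mice, and those of Tac1 and Penk in 3 of 4. Most Tac1-positive cells, 88 of 113, had no Tph1 UMI.

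Gast and Cartpt were found more often in cells with Gip than in cells without it. Of 85 cells with a Gip UMI, 43 held Gast and 53 held Cartpt, against 13 and 25 of the 132 cells without Gip. These counts pool mice that differ in Gip and Gast, and within mice the Gast level was higher with Gip in 3 of 4 and the Cartpt level in 4 of 4. Slc18a1 was found in 4 and Vim in 17 of the Gip-positive cells, against 38 and 82 of the others. Nnat, the imprinted gene neuronatin, stood at 3519 CPM in Gip-positive and 578 CPM in Gip-negative cells, and was higher with Gip in 4 of 4 mice. Tac1 was found in 47 of 85 and 66 of 132 cells, and its level was lower with Gip in 4 of 4 mice, at 218 against 773 CPM. Cells with both Tac1 and Gip numbered 13, 2, 13 and 19. All of these splits are descriptions.

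Tac1-led and Gip-led cells differed in more than the leading peptide. Over the 20 Tac1-led cells, Chgb stood at 41138, Fev at 519 and Vim at 826 CPM, while over the 40 Gip-led cells they stood at 22920, 131 and 75.0 CPM. Fev, a transcription factor of serotonin neurons and endocrine cells, was higher in Tac1-led than in Gip-led cells in every mouse, at 647, 468, 845 and 428 CPM against 115, 142, 210 and 126. Penk-led cells, 6 in number and 4 of them in the second 4-week mouse, all held Tph1, at 466 CPM, and had Chga at 21428 CPM.

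Cells with no leading peptide were not free of peptide UMIs: 34 of the 92 held Tac1, 24 held Pyy and 16 held Cartpt. Their Pyy share of 26.1% was not above the 33.7% of the deeper Acinar cells. In the cells with no leading peptide Neurog3, which starts endocrine differentiation, stood at 194 CPM with UMIs in 17 of 92 cells. Pax4 stood at 76.1 CPM in 33 of them, while Gip-led cells had no Neurog3 and 1 Pax4 UMI. In the 20 Tac1-led cells Neurog3 stood at 55.6 CPM with UMIs in 3 cells and Pax4 at 48.2 CPM in 5 cells. By mouse these levels were 0, 153, 0 and 0 CPM for Neurog3 and 0, 112, 0 and 19.0 CPM for Pax4. The second 2-week mouse gave 3 of the 40 Gip-led cells, so mouse and leading peptide cannot be told apart here. Insm1, a factor of developing endocrine cells, stood at 485, 1771, 744 and 1495 CPM in Tac1-led cells and at 1004, 969, 942 and 820 CPM in cells with no leading peptide, so the order differed between mice. In the second 2-week mouse, which had 43 of these 92 cells, their Neurog3 level was 332 CPM, against 82.6, 40.7 and 29.3 in the other mice. EEC-Progenitor cells had 2411 CPM. These cells were not shallow, with a median of 11022 UMIs.

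**Figure D3:**
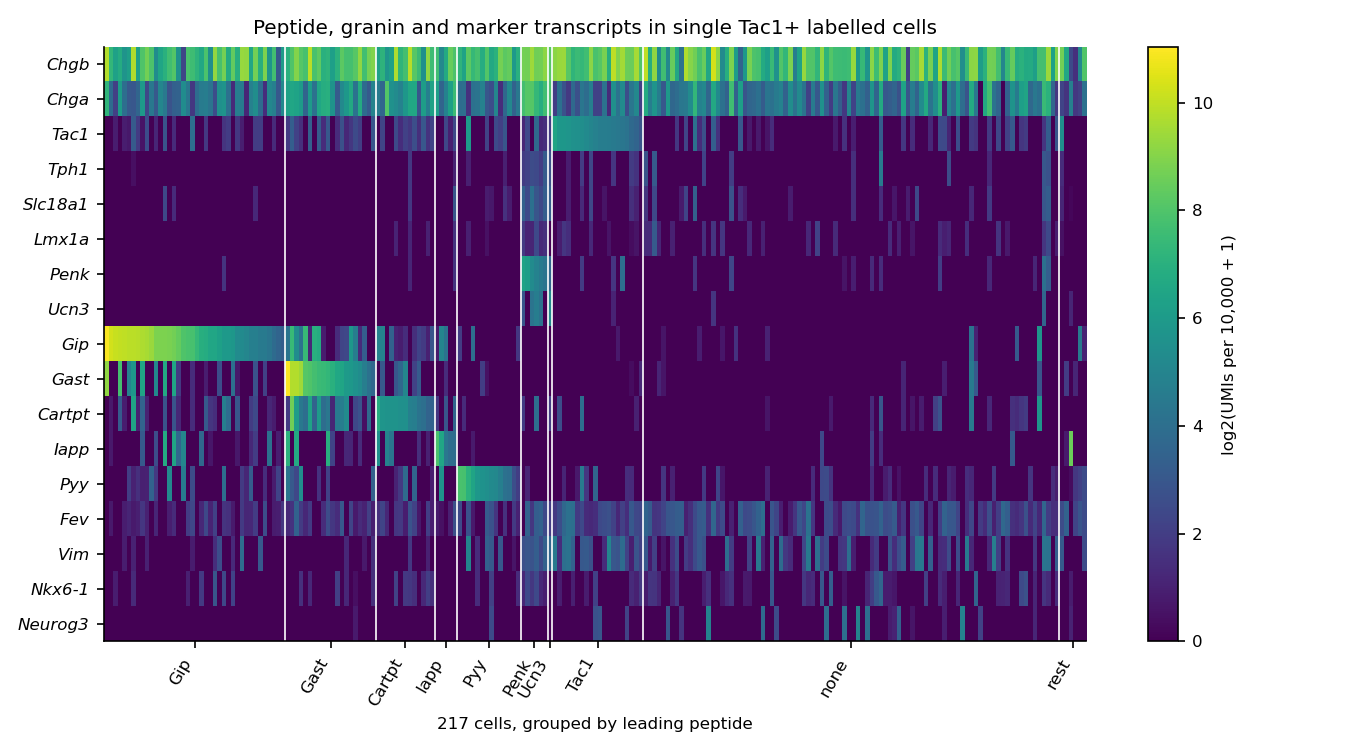
Transcripts of 17 genes (rows) in the Tac1+ labelled cells (columns), as log2 of UMIs per 10000 UMIs plus 1, grouped by leading peptide, with rest for Cck-, Ghrl-, Ins2- and Sst-led cells. Chgb is present in every column, Gip, Gast and Cartpt share columns, and Tph1, Slc18a1 and Penk meet in the Penk-led cells.

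Of 34 endocrine transcription factors, 33 had a UMI. In 4 of 4 mice, 5 of these (15.2%) were higher than in all other subtypes and 1 (3.03%) was lower, beside 4.13% and 0.195% of all features with a UMI. Lmx1a stood at 35.4, 21.9, 33.5 and 33.7 CPM and had no UMI in Delta or Epsilon cells. Nkx6-1, known from beta and enterochromaffin cells, stood at 35.4, 95.9, 35.7 and 121 CPM against 9.09 in EEC-Progenitor cells. Fev stood at 335, 367, 359 and 307 CPM, against 98.3 in Epsilon cells, and its SD over mice of 26.9 CPM was small. Pax6 at 776 and Rfx6 at 292 CPM, regulators of most enteroendocrine cells, were the other 2.

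Isl1, a LIM-homeodomain factor of islet and enteroendocrine cells, was the factor that was lower, at 68.7, 27.1, 0 and 55.0 CPM. It stood at 1566 in Delta, 1233 in Epsilon, 714 in Ppy+ and 112 in EEC-Progenitor cells. Hhex, the delta-cell factor, stood at 59.2 CPM against 1557 in Delta cells. Sst, Ghrl and Ppy, which define the other subtypes, stood at 30.5, 207 and 15.9 CPM.

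Of 34 receptors, sensors and channels, 28 had a UMI and 3 of these (10.7%) were higher than in the other subtypes in 4 of 4 mice, beside 4.13% of all features. They were Sstr1, a somatostatin receptor, at 29.9 CPM, the muscarinic receptor Chrm3 at 16.8 CPM and the channel Trpc4 at 5.72 CPM with 17 UMIs. Subunits of the ATP-sensitive potassium channel were low, Abcc8 at 22.2 CPM against 313 in Ppy+ and 292 in Delta cells, and Kcnj11 at 5.28 against 53.1 and 73.6. Among 9 peptide processing enzymes, Pam, which amidates peptides such as substance P and gastrin, was highest here in 4 of 4 mice at 711 ± 32.5 CPM. The convertase Pcsk1 was at 74.8 CPM, against 125 to 179 in the other hormone subtypes, and Pcsk2 at 443.

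Across all genes, 338 were at 50 CPM or more and higher here than in each other subtype in 4 of 4 mice with at most 25% of UMIs in 1 cell, and 10 were lower in all comparisons with 50 CPM or more in each other subtype. The level condition lay on the Tac1+ cells for the first count and on each other subtype for the second, so the counts are not comparable. Without these conditions, 4.13% of the features with a UMI in these cells were higher and 0.195% lower in 4 of 4 mice. The 20 of the 338 with the largest ratios included Tac1, Chgb, Slc18a1, Nkx6-1, Nnat and Fev. Vim, the intermediate filament vimentin, had a log2 ratio of 4.34, at 187, 250, 462 and 439 CPM against 16.5 in Delta cells. The stromal markers Col1a1, Col3a1 and Dcn had 3, 4 and 1 UMIs in the same cells. Vdr, the vitamin D receptor, was at 160 ± 22.7 CPM against 25.2 in Ppy+ cells. Fbln2, an extracellular matrix protein, was at 151 CPM and Gpx3, a secreted glutathione peroxidase, at 600 CPM, against 22.0 and 154 in Delta cells. The other 10 were Flrt1, Rnf152, Zfp174, Papss2, Ankrd44, Cachd1, Lrp8, Dusp6, Slc38a11 and Amigo2, with log2 ratios from 1.72 to 2.22. The 10 lower genes were Isl1, Pdlim4, Bambi, Muc1, Ctsl, Gm609, Nfic, Epcam, Ctsz and Ifitm2. Muc1, an epithelial mucin, was at 24.6 CPM against 51.1 to 196, and Ctsl, a lysosomal protease, at 343 against 473 to 948.

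Markers of tuft and dividing cells were low, while exocrine, mucin and ductal markers were present. The 11 tuft markers summed to between 16.7 and 64.6 CPM, and Il25 had no UMI. Mki67 and Top2a had 4 UMIs each. The 17 acinar enzymes summed to 28197, 33023, 20495 and 16024 CPM, and in the Delta, Epsilon and Ppy+ cells together to 20622, 19126, 14784 and 16719. They were at 89108 CPM in the 5 Iapp-led and 134858 CPM in the 2 Cck-led cells, against 9671 CPM in Tac1-led cells. Ctrb1, a chymotrypsinogen, gave 44170 CPM of the Iapp-led sum with 96.3% of its UMIs in 1 cell, and 76879 CPM of the Cck-led sum with 97.6% in 1 cell. The 14 mucin and ductal markers summed to 2466, 2426, 5871 and 4352 CPM, against 2062, 2836, 2559 and 2510 in the Delta, Epsilon and Ppy+ cells together. The 6 Reg family genes summed to between 1598 and 7161 CPM. The part of free RNA or of doublets in this was not tested.

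The share of Tac1+ cells among enteroendocrine cells was 16.0% (11.8 to 20.9), 18.3% (14.6 to 22.5), 14.8% (11.1 to 19.3) and 18.9% (14.6 to 23.8). Means were 17.1 ± 1.64% at 2 weeks and 16.9 ± 2.85% at 4 weeks (SD, n = 2), a difference of -0.286 percentage points (two-sided exact permutation p = 1, adjusted over the 2 shares p = 1). With EEC-Progenitor cells left out of the denominator the shares were 19.2%, 31.98%, 20.4% and 27.5%, and the difference was -1.60 points (exact permutation p = 1). Of cells with a deposited type, the Tac1+ cells were 1.44%, 1.98%, 1.63% and 1.43%, and their means at 2 and 4 weeks were 1.71 ± 0.380% and 1.53 ± 0.142% (exact permutation p = 0.667, adjusted p = 1). The groups overlapped in both. With 2 against 2 mice this exact test cannot give a p below 1 in 3, and sorting sets which cells are counted.

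Between 4 and 2 weeks, the Tac1+ cells differed in few genes. In edgeR's quasi-likelihood test with Benjamini-Hochberg adjustment, 6 of 7349 genes passed 0.05 (0.0816%), 2 higher at 4 weeks (0.0272%) and 4 lower (0.0544%), and 380 (5.17%) had an unadjusted p under 0.05. Groups of mice did not overlap for 32.6% of all genes tested. The 2 higher genes were Ttr and Tspan8, and the 4 lower ones were Rnase1, Nupr1, Sycn and 1810053B23Rik. The count rests on the mice: it rose without the first 2-week, the second 2-week or the first 4-week mouse. Without the second 4-week mouse, the one with Ddx3y and no Xist, the called genes were partly others and mostly higher at 4 weeks, while the count did not rise. With the variance estimate not made robust to outlying genes it was 0, with 373 genes at an unadjusted p under 0.05.

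Ttr, the thyroid hormone carrier transthyretin, stood at 210.4 and 216.9 CPM at 2 weeks and at 569 and 616 CPM at 4 weeks. Its log2 change was 1.45 (SE 0.171, edgeR adjusted p = 0.00744, higher in both 4-week mice than in both others). One cell of the second 4-week mouse held 18.2% of its UMIs, and that mouse had 329 CPM without it. With the top cell of each gene left out in each mouse, the change was 1.06 (edgeR adjusted p = 0.0655, and 1.23e-10 to 0.910 over 12 alternatives). In the Delta, Epsilon and Ppy+ cells together Ttr stood at 630, 405, 822 and 542 CPM, where the times overlapped.

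Tspan8, a membrane tetraspanin, stood at 91.7 and 61.5 CPM at 2 weeks and 223 and 201 CPM at 4 weeks, with UMIs in 137 cells and at most 3.48% in 1 of them. In the Delta, Epsilon and Ppy+ cells together it stood at 245, 209, 331 and 360 CPM, also higher at 4 weeks without overlap and above the Tac1+ cells in every mouse. The log2 change was 1.496 (SE 0.218, edgeR adjusted p = 0.0189, and 3.12e-09 to 0.0950 over 11 alternatives, 9 of them past the threshold).

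Rnase1, the secreted pancreatic ribonuclease, stood at 579 and 587 CPM at 2 weeks and 232 and 144 CPM at 4 weeks. It fell by 1.65 on the log2 scale (SE 0.219, edgeR adjusted p = 0.0151), with 24.7% of UMIs in 1 cell. Sycn, syncollin of the zymogen granule, went from 433 and 422 to 214 and 160 CPM and fell by 1.21 (edgeR adjusted p = 0.0280). Nupr1, a stress-induced nuclear protein, went from 233 and 182 to 55.8 and 81.7 CPM and fell by 1.58 (edgeR adjusted p = 0.0189). 1810053B23Rik had UMIs in 23 cells, 29.9% of them in 1, and stood at 39.6, 75.1, 6.69 and 5.33 CPM (edgeR adjusted p = 0.0280). The groups of mice did not overlap for any of the 4, a condition of naming that 32.6% of all genes tested met. Without the second 4-week mouse 3 of them lost their call, with edgeR adjusted p = 0.0539 for Rnase1, 0.482 for Sycn and 0.296 for 1810053B23Rik. Without the second 2-week mouse it was 0.135 for 1810053B23Rik. Over all alternatives edgeR and DESeq2 gave adjusted p from 2.78e-14 to 0.968 for Rnase1, from 2.07e-07 to 0.968 for Sycn, from 8.26e-09 to 0.0893 for Nupr1 and from 2.03e-10 to 0.296 for 1810053B23Rik.

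Exocrine and ductal markers are given beside these genes. Acinar enzymes summed to more in both 2-week mice than in both 4-week mice, as given above. This also held in the Delta, Epsilon and Ppy+ cells together, at 20622 and 19126 against 14784 and 16719 CPM. None of the 16 tested passed the threshold in edgeR, beside 0.0816% of all genes. DESeq2 called Pnliprp1 and Ctrb1 (adjusted p = 0.0457 for both), both lower at 4 weeks. In edgeR 13 were lower and 3 higher at 4 weeks, with a median log2 change of -0.52 against 0.00132 over all genes. Of all genes 3665 of 7349 were lower. An unadjusted p under 0.05 was found for 9 of the 16 enzymes and for 5.17% of all genes. Rnase1 was also lower at 4 weeks in the Delta, Epsilon and Ppy+ cells together, at 393, 342, 180 and 122 CPM. Mucin and ductal markers summed to more in both 4-week mice, where Tff2 alone stood at 3194 and 1138 CPM and had 37.2% of its UMIs in 1 cell. Of 8 tested none passed in edgeR, beside 0.0816% of all genes. Of the 8, 4 were higher and 4 lower, and 2 had an unadjusted p under 0.05. Those 2 changes were 2.28 for Tff2 (edgeR adjusted p = 0.967) and 1.52 for Muc6 (edgeR adjusted p = 0.896) on the log2 scale. The part of RNA from exocrine or ductal cells in the falls and rises was not tested.

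Genes with the smallest p that did not pass in edgeR were Pga5, Vim, Atp2b4, Agr2 and Chgb among those higher, and Pnliprp1, Pla2g1b, Dmbt1, Cuzd1 and Cpb1 among those lower. Pnliprp1 (edgeR adjusted p = 0.0731) passed in 6 of 11 alternatives, DESeq2 among them. Chgb had a log2 change of 0.59 (SE 0.134, edgeR adjusted p = 0.235) and Vim one of 1.01 (SE 0.193, edgeR adjusted p = 0.103). Genes were named only where the groups did not overlap, which held for 32.6% of all genes tested. Pla2g1b rested on 1 cell with 49.2% of its UMIs. None of the peptides passed: of 13 tested, 7 were higher and 6 lower. Tac1 had a log2 change of 0.74 (SE 0.443, edgeR adjusted p = 0.992) and Gast one of 3.61 (edgeR adjusted p = 0.992). The 2 with an unadjusted p under 0.05 were Ucn3 at 3.09 (edgeR adjusted p = 0.300) and Penk at 3.37 (edgeR adjusted p = 0.903). Of 7 serotonin genes, 28 endocrine factors and 21 vesicle genes tested, none passed. Over all genes tested 0.0816% passed, so no stability is read from lists this short, the 13 peptides included. Of the vesicle genes, 15 were higher and 6 lower, with a median of 0.18. Over all genes 3684 of 7349 were higher, with a median of 0.00132. Of the 21, 5 had an unadjusted p under 0.05, beside 5.17% of all genes.

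**Figure D4:**
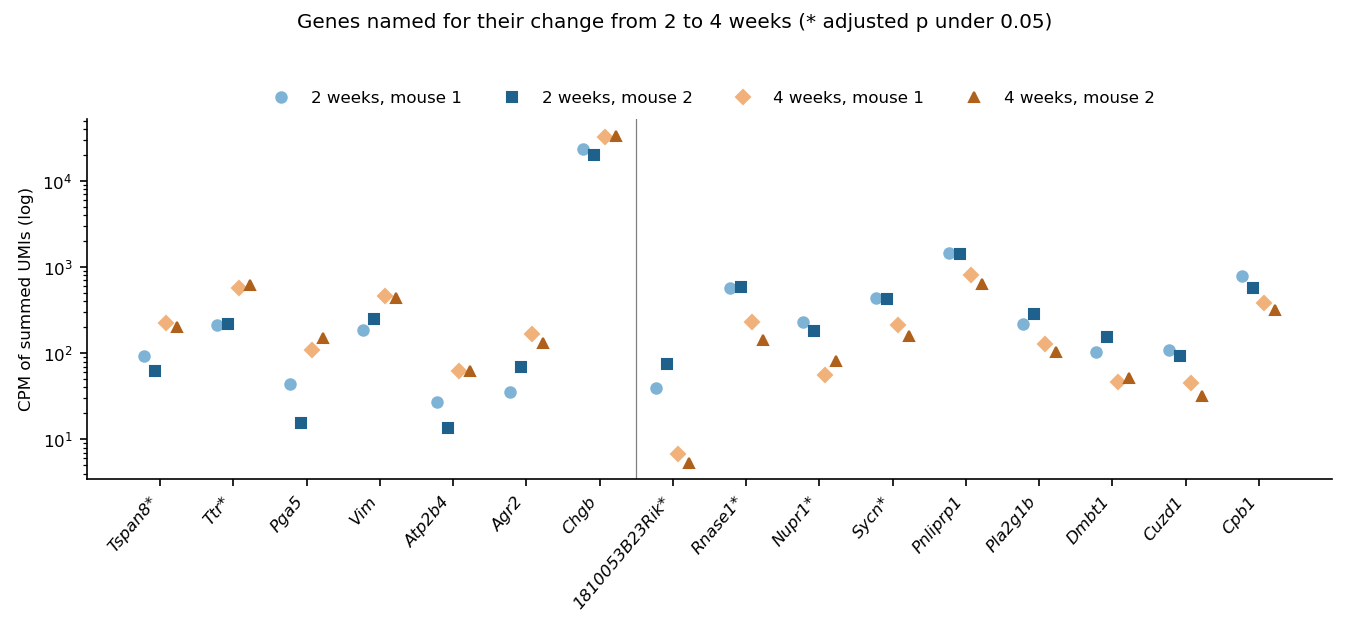
CPM of summed UMIs in the Tac1+ cells of each mouse, on a log axis, for genes named for their change between 2 and 4 weeks, higher at 4 weeks left of the line and lower right of it. An asterisk marks an edgeR adjusted p under 0.05, and all 16 genes were named for groups that do not overlap.

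Whether time acted differently on the Tac1+ cells than on the Delta, Epsilon and Ppy+ cells together was tested as an interaction with the mouse as a block. Of 10776 genes, 5 passed the edgeR adjusted p of 0.05 (0.0464%), 4 of them with a more positive change in Tac1+ cells (0.0371%), and 417 had an unadjusted p under 0.05 (3.87%). The 4 genes were Gm26917, Pigr, Vim and Scn3a. DESeq2 called Gm26917 alone, with an adjusted p of 1.00 for Pigr and Scn3a and 0.476 for Vim.

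Pigr, which carries antibodies across epithelia, stood at 47.9, 162, 323 and 284 CPM in Tac1+ cells and at 18.2, 68.6, 31.5 and 33.1 in the other hormone cells. The difference of changes was 1.71 on the log2 scale (SE 0.251, edgeR adjusted p = 0.00109), and the largest share in 1 cell was 5.80%. Over the cells with no leading peptide Pigr stood at 12.7, 167, 163 and 152 CPM, and over Gip-led cells at 57.6, 255, 187 and 142. It was at 422 CPM over Gast-led and 1590 CPM over Penk-led cells, groups that were uneven between mice. The part of a different mix of cells in the difference was not tested. Scn3a, a voltage-gated sodium channel, stood at 35.4, 38.6, 84.8 and 71.0 CPM against 55.9, 74.2, 34.6 and 37.0, with a difference of 1.73 (SE 0.323, edgeR adjusted p = 0.0216). Scn3a lost its call without the second 2-week mouse (edgeR adjusted p = 0.370), the first 4-week mouse (0.311) or the second 4-week mouse (0.0507), with 0.000904 to 1.00 over 12 alternatives. Pigr lost it without the second 2-week mouse (edgeR adjusted p = 0.173, and 1.88e-06 to 1.00 over 12 alternatives).

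The interaction calls of Vim and Gm26917 were lost when the richest Tac1+ cell and the richest of the other hormone cells were left out in each mouse. Vim stood at 6.74, 15.7, 4.67 and 2.47 CPM in the other hormone cells, and its difference of 2.38 (SE 0.384, edgeR adjusted p = 0.00263) became 1.20 (edgeR adjusted p = 1.00, and 3.83e-06 to 1.00 over 12 alternatives) when the top cell of each gene was left out. The change within the Tac1+ cells was 1.01 with all cells and 0.97 without top cells. Without the second 2-week or the second 4-week mouse its edgeR adjusted p was 0.368 and 0.0513. Gm26917, a predicted gene, had 42.6% of its UMIs in 1 cell of the second 4-week mouse, whose level went from 637 to 51.9 CPM without it. Its difference of 2.23 (SE 0.240, edgeR adjusted p = 2.05e-05) became -0.78 (edgeR adjusted p = 1.00, and 1.10e-18 to 1.00) without top cells.

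**Figure D5:**
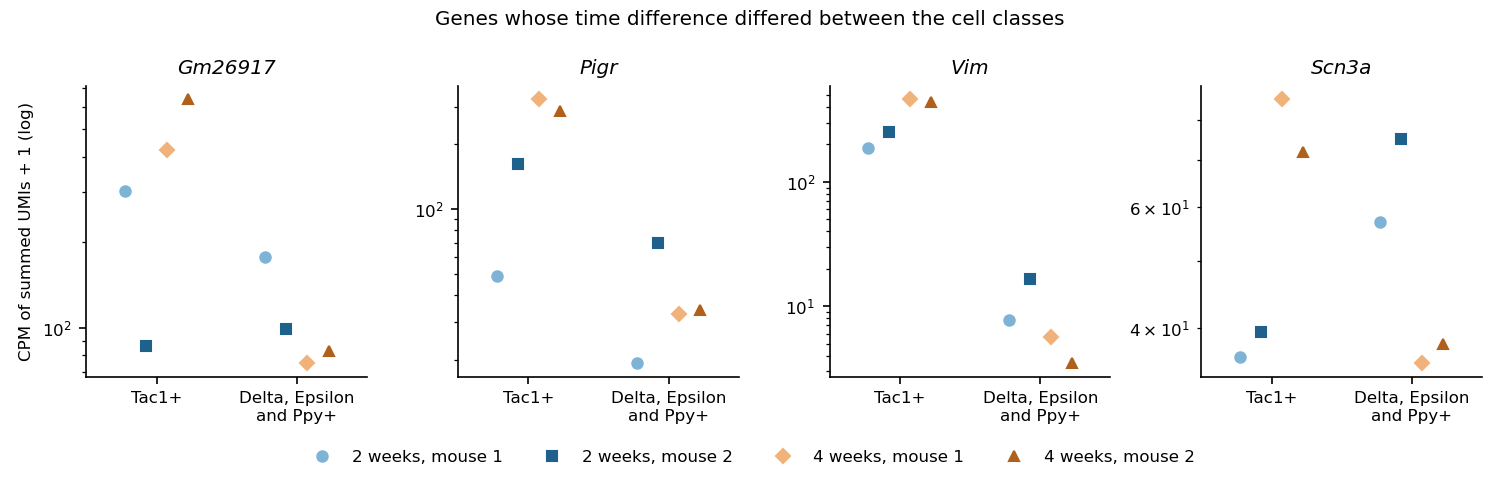
CPM of summed UMIs plus 1, on a log axis, in the Tac1+ cells and in the Delta, Epsilon and Ppy+ cells together, for the 4 genes with a more positive change that passed the interaction test; each symbol is a mouse. In the Tac1+ cells both 4-week mice lie above both 2-week mice for Gm26917, Pigr, Vim and Scn3a, and the scales differ between panels.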

How the data were processed

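Single-cell RNA was measured in sorted EYFP-positive pancreas cells of 4 mice, 2 per time point. The values deposited by the authors are whole-number UMI counts that had not been normalized, and the authors' own cell names. The tables hold 32288 features, and the smaller table equals the merged one over shared cells (summed difference 0). Cell Ranger 4.0.0, Seurat 3.2.3 and mm10 are named in the submitters' processing notes; their settings and the gene annotation are not given in the sources used here. Whether introns were counted, and on which strand, is likewise not given, so overlapping genes could share UMIs.

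Cells were assigned to mice through their deposited names, and counts were summed per mouse and subtype. Time was tested on these sums with edgeR 4.0.16 (quasi-likelihood, robust, TMM, filterByExpr, R 4.3.3) over all genes and adjusted at 0.05, with DESeq2 1.42.0 as an alternative. The interaction fit had the mouse as a block. Fits were tested on simulated counts. Shares have 95% exact intervals and two-sided exact permutation tests (Python 3.11.15, scipy 1.17.1). Thinning was to 1500 UMIs. The members and gene lists were chosen with earlier results of these data known. Named genes are those of the lists, up to 10 called genes per direction with at least 10 CPM and no overlap between times, and, where under 5 passed, the 5 with the smallest p. For the interaction they come from the 5 with the smallest p at 10 CPM or more in the Tac1+ cells, of which 4 are reported. Between subtypes they are the 20 higher and 10 lower genes at 50 CPM or more that differ from each other subtype in 4 of 4 mice, with at most 25% of UMIs in 1 cell for the higher ones. Alternatives changed the tool, scaling, filter, depth, peptide genes, denominators and mice. Leaving out the insulin cell or the top cell of each gene was added after the data had been seen. Promoter sequences are RefSeq's on GRCm38.p6, which mm10 also names; Slc18a1 and Penk had no entry. Results for some genes are not reported here.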

Additional observations from a re-analysis of the deposited data

Results flagged for a closer look

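A test of the difference of time effects between the Tac1+ cells and the Delta, Epsilon and Ppy+ cells singled out the following genes. The difference on the log2 scale was 2.23 for Gm26917, 1.71 for Pigr, 2.38 for Vim and 1.73 for Scn3a. Gm26917 and Vim lost their call when the richest Tac1+ cell and the richest of the other hormone cells were left out in each mouse. Of the UMIs in the Tac1+ cells, 1 cell held 42.6% for Gm26917 and 7.91% for Vim. Pigr, Vim and Scn3a were not called by DESeq2, and Scn3a was called in 6 of 12 alternatives.

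Cells without a deposited type were used in no comparison above. Of 7778 such cells, 43 held a Tac1 UMI (0.553%, exact interval 0.400 to 0.744), 6, 11, 6 and 20 of them in the 4 mice, where a count of 0 would have allowed up to 0.0386%. In 18 of the 43 at least 20 Chgb UMIs were present, and 14 of the 7778 held Tph1. The share of Acinar cells with a Tac1 UMI was 0.297%. Across the deposited types, with the Tac1+ cells left out, it ranged from 0% in Tuft/EEC.Progenitor to 1.79% in Acinar/MucinDuctal cells. In the other EEC cells it was 1.11%, so the untyped cells lay within the range of these types.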

How the results depend on the processing

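No paired analysis was possible because each mouse was sampled at 1 time and the labels give no numbers shared between times. With 2 mice per time, summed depth of 448302 to 959183 UMIs and genes carried by few cells, mice and single cells limit the time results. The count of 6 genes changed by time became 54 with no filter on low counts, 0 without robust variance (373 at an unadjusted p under 0.05), 1 with each cell thinned (1458 genes tested) and 6 to 155 without 1 mouse. The 1 gene called after thinning was not among the 6. At that depth Ttr had a log2 change of 0.97 (edgeR adjusted p = 0.910). Rnase1 had -1.16 and Sycn -0.81 (edgeR adjusted p = 0.968 for both). The count was 5 with DESeq2, of which 2 were among the 6. With RLE size factors it was 6, with peptides and enzymes left out 7 and without the insulin cell 9, and each held all of the 6. Without the top cell of each gene it was 6, of which 4 (Nupr1, Rnase1, Sycn and Tspan8) were among the 6 of the main fit. The count of 5 interaction genes became 1 with DESeq2 (44 at an unadjusted p under 0.05), 11 with no filter, and 5 to 36 without 1 mouse. It was 36 without the first 2-week mouse and 14 without the second 4-week mouse. Without top cells Gm26917 went to -0.78 and Pla2g1b, which had not passed, to 0.047 on the log2 scale. Of their UMIs in the Tac1+ cells, 42.6% and 49.2% were in 1 cell each, and that alternative drops the richest cell in every mouse. For the interaction it also drops the richest of the Delta, Epsilon and Ppy+ cells. Which removal moved the values was not tested. The difference in the share of enteroendocrine cells, -0.286 points, was -1.60 with EEC-Progenitor cells left out of the denominator and ranged from -2.30 to 1.73 without 1 mouse. That of typed cells, -0.175 points, was -0.122 over the tuft and enteroendocrine table, -0.0632 in cells with at least 5000 UMIs, and -0.443 to 0.0935 without 1 mouse. Tac1-led cells, 20 at a minimum of 10 UMIs, were 32 at a minimum of 3 UMIs, 12 at 30 and 2 after thinning. Cells with no leading peptide were 61 at 3 UMIs and 161 after thinning, and Gast-led cells were 13 after thinning. For the single genes named for a time change, 127 recalculations kept their side of the threshold, 36 gained a call and 18 lost one. In 1 more, Pla2g1b without top cells, the sign changed and the gene stayed uncalled. For those of the interaction, 34 kept their call, 13 lost it and 1, Gm26917 without top cells, lost it with a changed sign. Causes other than the lower minimum, higher minimum and lower depth were not tested. Mean levels moved by more than the SD over mice for Tph1, at 31.7 CPM without top cells and 53.4 CPM as a mean of single-cell values. For Gip, Gast, Cartpt, Ins2 and Neurog3 that SD is about as large as the mean or larger and says nothing of stability. For Tac1 it was 268 CPM at a mean of 607 CPM. Without the first 4-week mouse Gast went from 4858 to 1207 CPM, and without the second 2-week mouse Neurog3 went from 64.0 to 17.6 CPM. Without the first 2-week mouse Gip went from 9072 to 4918 CPM. Without top cells Cartpt went from 954 to 483 CPM and Ins2 from 7976 to 6.33 CPM.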

Other observations

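Cartpt and Gast UMIs also occurred in cells of the type Acinar/MucinDuctal, almost all of them in the second 4-week mouse. There 88 of 1012 such cells held Cartpt and 94 held Gast, while the other mice had 1 of 301, 0 of 293 and 2 of 349 with Cartpt and 0, 2 and 11 with Gast. Tac1 was found in 1, 13, 0 and 21 of the same cells. The cells with Cartpt had a median of 6215 UMIs, and 2 of the 91 held 20 or more Chgb UMIs. In untyped cells, 67 of the 87 with Cartpt and 107 of the 150 with Gast came from the second 4-week mouse too.

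Mucin and gastric genes listed for ductal cells were carried unevenly by the Tac1+ cells. Tff2, a trefoil peptide, stood at 433, 454, 3194 and 1138 CPM with 37.2% of UMIs in 1 cell, and Gkn3, a gastrokine, at 879, 291, 1254 and 1889 CPM with 30.5% in 1 cell. The mean levels without the richest cell in each mouse were 663 and 437 CPM.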
